A study of Mus musculus with 21 samples.

Results

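The 37 genes described here are those of 16443 measured in mouse embryonic stem cells that stood higher in serum with leukaemia inhibitory factor (SL) than in 2i medium in each of 4 cell lines. They were chosen on these measured values: the lowest of the 4 group means in SL had to be at least 50, and at least 3 times the highest of the 4 group means in 2i. Of the 10672 genes whose lowest SL mean reached 50, 37 also met the ratio, and 50 genes met the same rule with the media exchanged. All lines derive from 2TS22C, an established mouse embryonic stem cell line. The miniSOX cells were transduced with a miniSOX lentivirus, the FNV cells with a SOX17FNV lentivirus, and the SOX2 cells with a SOX2 lentivirus. In these 3 lines endogenous SOX2 was silenced and the treatment is given as DOX. NTC cells, the last line, were not transduced, carry the genotype label WT, and have no DOX label, so a line set against NTC differs in factor, virus and DOX treatment together. The design text names the second medium as 2i with serum and Lif. Each line had 2 libraries in SL. In 2i there were 2 libraries of miniSOX, 4 of FNV, 4 of SOX2 and 3 of NTC cells.

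The inhibitors that give 2i its name block MEK, the kinase above ERK, and GSK3, which restrains beta-catenin. In mouse embryonic stem cells 2i is known to hold the population in a uniform naive state, whereas cells in serum and LIF keep ERK signalling and include some that express genes of formative or primed pluripotency, the states that follow the naive one on the way to differentiation. SOX2 is an HMG-box factor that binds DNA with OCT4 at pluripotency genes. SOX17 is a relative known for its part in endoderm, and SOX17FNV is an engineered form of it.

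The values are whole numbers normalized between libraries by the authors, without a unit, and the depth behind them is unknown. Whether they were divided by gene length was not established, so a level is compared here only between libraries and never between genes. The libraries were deposited in 2 waves: SL libraries of FNV, SOX2 and NTC cells were all in the first, all miniSOX libraries were in the second, and FNV, SOX2 and NTC cells in 2i were in both. Second-wave libraries of the last 3 lines are called p21 and p31 here, after their columns. The 8 embryonic stem cell markers, among them Pou5f1 and Nanog, summed to 47026 to 86997 in SL libraries and to 46304 to 78622 in 2i libraries. None of them was at 0 throughout. The 12 measured fibroblast markers summed to 6925 to 10486 in SL and to 15007 to 41101 in 2i. Most of that sum was Fn1, with group means of 5797 to 9102 in SL and 21619 to 30292 in 2i, while 6 of the 12 were higher and 3 lower in SL in every line. Lum was at 0 in all SL libraries, and the part of these markers in the results was not tested. In bulk RNA, fewer cells of a type and less RNA per cell cannot be told apart.

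The ratio of the lowest SL mean to the highest 2i mean lay between 3.02 and 21.1 in 36 of the 37 genes, with a median of 3.97, and it was at least 5 in 12 of them. The exception, Olfr924, was listed at 0 in all 13 libraries in 2i. Every SL library stood above every 2i library for 35 of the 37 genes. The same was true of 2.46% of all genes, a share from which nothing is read because the rule used this contrast. Just inside the ratio were Bicdl1 at 3.02, Chst10 at 3.06 and Sox11 at 3.12. Just outside it were Sox4 at 2.95, Grb7 at 2.94 and Eras at 2.77. Sox4 and Sox11 belong to the same subgroup of SOX factors, and the threshold fell between them: the lowest SL mean and the highest 2i mean were 312 and 100 for Sox11, and 360 and 122 for Sox4. Nearest above the minimum of 50 were Cxcl12, with a lowest SL mean of 55.5, the lincRNA Gm14015 with 62.5, Klc3 with 75 and Olfr924 with 76.5. Pcdh1 at 47.0, Mt3 at 43.5 and Adcy7 at 41.0 met the ratio and missed that minimum.

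**Figure D1:**
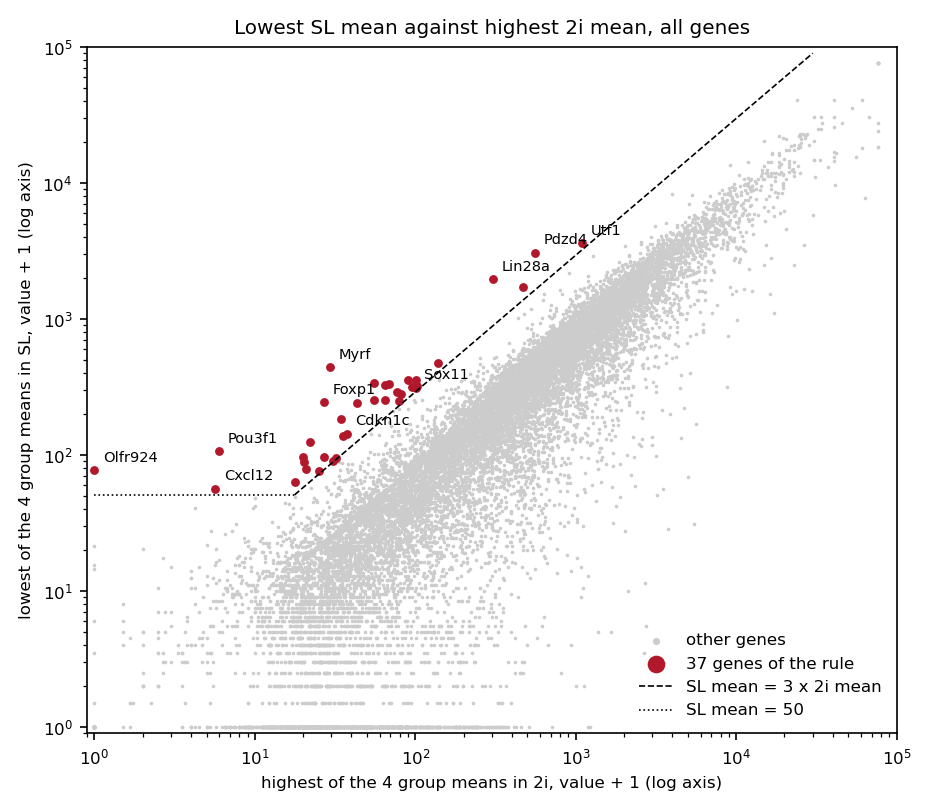
Lowest of the 4 SL group means against the highest of the 4 2i group means for all 16443 genes, each plus 1, on log axes. The 37 genes, in red, lie above both the line of a 3-fold ratio and the minimum of 50, and Olfr924, Pou3f1, Myrf and Cxcl12 lie farthest from the ratio line.

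Regulators of transcription and of RNA in pluripotent and neural cells formed one group of members. Pou3f1, also called Oct6, is a POU-domain factor known as a marker of primed pluripotency. In SL its values were 542 and 494 in miniSOX, 118 and 224 in FNV, 148 and 63 in SOX2, and 64 and 158 in NTC libraries. The 13 libraries in 2i held 1 and 2 in miniSOX, 1, 2, 5 and 6 in FNV, 5, 9, 2 and 4 in SOX2, and 1, 1 and 8 in NTC cells (here and below in the order replicate 1, replicate 2, p21, p31). Both miniSOX libraries in SL exceeded every other library, while the other 3 lines overlapped in SL and replicates differed by over 1.5-fold within each of them. An antisense gene, Gm2164, overlaps Pou3f1, and no source used here says whether strand was used in counting.

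Utf1, a chromatin-bound factor of undifferentiated embryonic stem cells, had SL values of 3619 and 3647 in miniSOX, 4307 and 5574 in FNV, 4411 and 4902 in SOX2, and 4233 and 5331 in NTC libraries. In 2i it was 449 and 494 in miniSOX, 1284, 1287, 735 and 1079 in FNV, 817, 892, 593 and 438 in SOX2, and 729, 702 and 211 in NTC libraries. Utf1 thus kept at least 211 in every 2i library, and that lowest value was the NTC p31 library's. Lin28a, an RNA-binding protein that blocks maturation of let-7 microRNAs, was 2954 and 3035 in miniSOX, 2199 and 1749 in FNV, 3034 and 2394 in SOX2, and 2199 and 2016 in NTC libraries in SL. Its 2i values were 106 and 121 in miniSOX, 33, 32, 38 and 120 in FNV, 29, 26, 113 and 50 in SOX2, and 174, 199 and 543 in NTC libraries. All 3 NTC libraries exceeded every other 2i library for Lin28a, and p31 stood well above the other two.

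Sox11, a SOX factor of neural progenitors, differed little between lines in SL, where the libraries lay between 285 and 381 with a median of 344. The highest of its SL means was 1.17 times the lowest, the narrowest spread among the 37 genes. In 2i Sox11 was 0 and 23 in miniSOX, 23, 8, 6 and 12 in FNV, 62, 85, 36 and 33 in SOX2, and 88, 69 and 143 in NTC libraries, so that NTC and SOX2 libraries all stood above those of FNV and miniSOX. Foxp1, a forkhead factor with a splice form known from embryonic stem cells, was 436 and 385 in miniSOX, 496 and 382 in FNV, 864 and 692 in SOX2, and 203 and 286 in NTC libraries in SL. Against these values its 2i libraries all lay between 15 and 34, with a median of 24. Myrf, a membrane-bound factor known for driving myelin genes in oligodendrocytes, was 1749 and 1731 in miniSOX, 1694 and 1461 in FNV, 1399 and 1223 in SOX2, and 439 and 442 in NTC libraries in SL. The 3 transduced lines did not overlap with NTC cells there. In 2i Myrf was 35 and 22 in miniSOX, 16, 28, 22 and 22 in FNV, 8, 11, 4 and 1 in SOX2, and 4, 7 and 6 in NTC libraries.

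**Figure D2:**
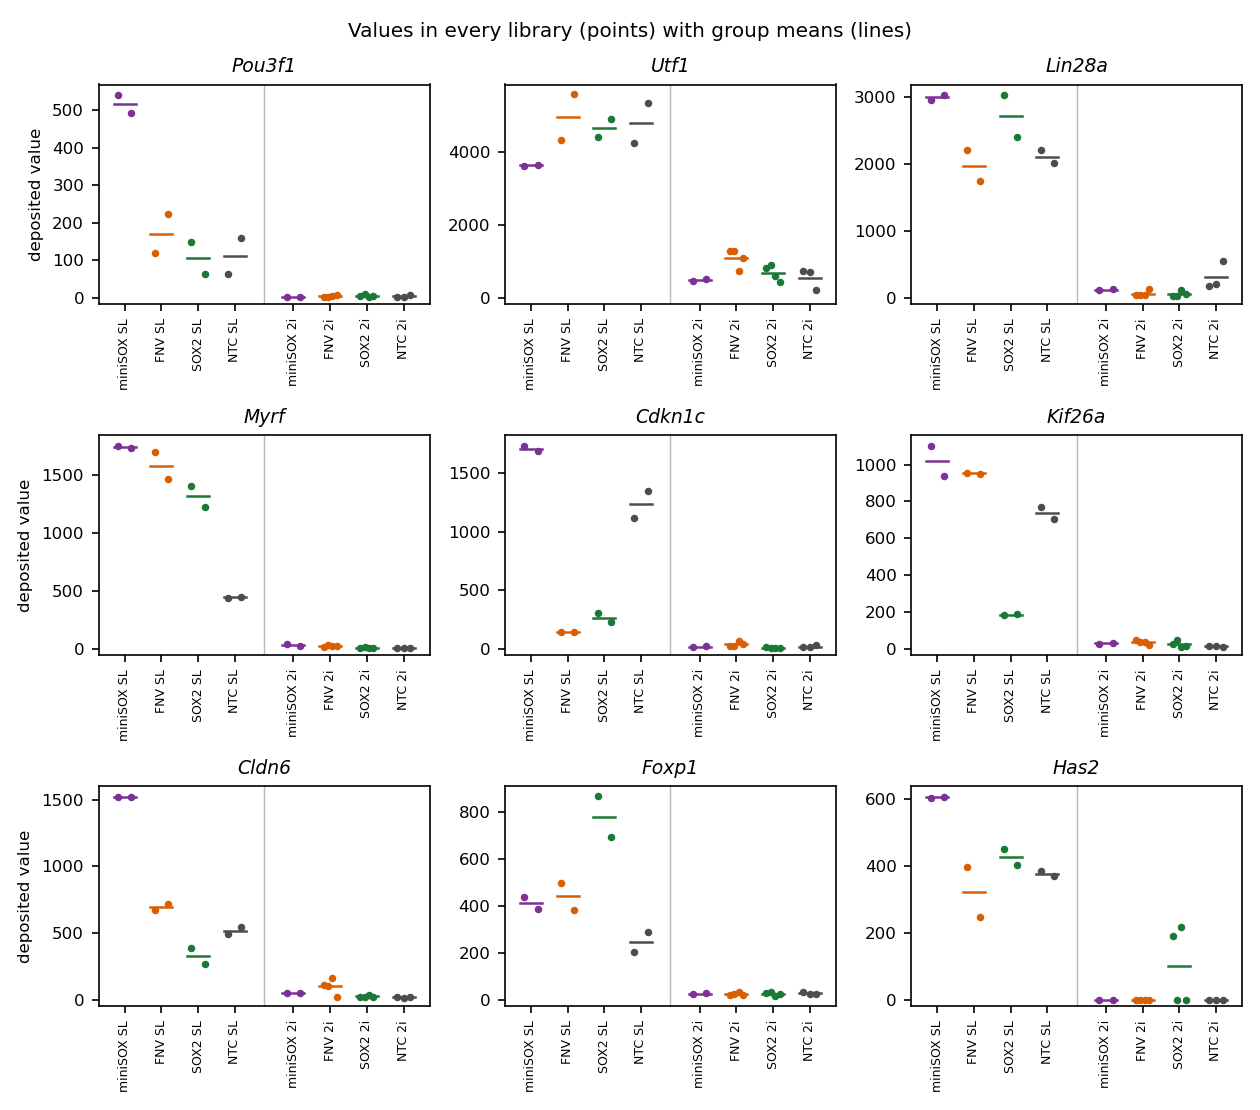
Deposited values of 9 genes in every library (points) with the group mean (line), SL groups left of 2i groups and lines in the order miniSOX, FNV, SOX2, NTC, each axis starting near 0. Pou3f1 is highest in miniSOX cells in SL, Kif26a is lowest in SOX2 cells in SL, Cdkn1c is low in FNV and SOX2 cells in SL, and Has2 has 2 SOX2 libraries above 0 in 2i.

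Secreted and matrix proteins, with enzymes of the cell surface, were also represented. Cxcl12, the chemokine that binds CXCR4, was 85 and 89 in miniSOX, 65 and 46 in FNV, 84 and 59 in SOX2, and 70 and 69 in NTC libraries in SL, and between 0 and 10 in the 13 libraries in 2i. Igfbp3, which binds insulin-like growth factors, was 366 and 373 in miniSOX, 116 and 83 in FNV, 96 and 82 in SOX2, and 91 and 86 in NTC libraries in SL. Its 2i libraries lay between 8 and 33 with a median of 16. Among SL libraries, then, Igfbp3 separated miniSOX from the other 3 lines, which overlapped.

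Lamb1 encodes the beta 1 chain of laminins, major proteins of basement membranes. It was 2295 and 2325 in miniSOX, 2295 and 2218 in FNV, 1764 and 1701 in SOX2, and 1834 and 1880 in NTC libraries in SL. Lamb1 stayed at 294 to 650 in 2i, with a median of 362. Pxdn, the peroxidase that crosslinks collagen IV, lay between 316 and 600 in SL with a median of 409, and between 33 and 139 in 2i with a median of 89. Gpc1, a heparan sulfate proteoglycan of the cell surface, lay between 303 and 521 in SL and between 15 and 209 in 2i. For Gpc1 the NTC p31 library at 209 stood apart from NTC replicates 1 and 2 at 35 and 38, and SOX2 replicates 1 and 2 at 84 and 133 came next. Chst10, which adds sulfate to the HNK-1 carbohydrate, lay between 87 and 134 in SL, and in 2i was 9 and 9 in miniSOX, 7, 5, 0 and 7 in FNV, 20, 20, 8 and 18 in SOX2, and 26, 24 and 43 in NTC libraries.

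Has2, which makes hyaluronan, was 602 and 607 in miniSOX, 397 and 248 in FNV, 449 and 403 in SOX2, and 384 and 369 in NTC libraries in SL. In 2i it was listed at 0 in 11 of 13 libraries and at 189 and 218 in replicate 1 and p21 of SOX2 cells. Enpp3, a membrane enzyme that cleaves extracellular nucleotides, followed another order: 587 and 529 in miniSOX, 464 and 486 in FNV, 892 and 880 in SOX2, and 1231 and 1385 in NTC libraries in SL. The 4 lines did not overlap in SL for Enpp3, with NTC highest. NTC was also high for Enpp3 in 2i, at 153, 134 and 124, against which FNV p31 at 141 was the only other library above 100.

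Epithelial, adhesion and guidance genes formed another group. Cldn6, a tight-junction claudin of early embryonic epithelia, was 1525 and 1521 in miniSOX, 676 and 718 in FNV, 390 and 264 in SOX2, and 490 and 542 in NTC libraries in SL. In 2i it was 46 and 46 in miniSOX, 112, 104, 159 and 22 in FNV, 16, 22, 37 and 20 in SOX2, and 18, 15 and 21 in NTC libraries. Esrp1, the epithelial splicing regulator, was 1142 and 1211 in miniSOX, 539 and 585 in FNV, 307 and 344 in SOX2, and 467 and 395 in NTC libraries in SL, and between 21 and 95 in 2i. Cldn6 and Esrp1 had the same order of line means in SL: miniSOX, FNV, NTC, SOX2.

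Igsf9, an immunoglobulin-family adhesion protein of neurons, was 848 and 1037 in miniSOX, 602 and 827 in FNV, 573 and 448 in SOX2, and 289 and 211 in NTC libraries in SL. Its 2i values were 51 and 46 in miniSOX, 74, 74, 104 and 61 in FNV, 28, 27, 44 and 23 in SOX2, and 14, 18 and 16 in NTC libraries. NTC was the lowest line for Igsf9 in both media. Plxnb1, a receptor for the semaphorin Sema4D, was 924 and 830 in miniSOX, 363 and 312 in FNV, 542 and 646 in SOX2, and 603 and 528 in NTC libraries in SL, and between 21 and 78 in 2i.

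Genes of the cytoskeleton and of transport along it were another group. Kif26a, an atypical kinesin, was 1103 and 940 in miniSOX, 956 and 947 in FNV, 184 and 185 in SOX2, and 769 and 706 in NTC libraries in SL, so that SOX2 cells stood well below the other 3 lines. In 2i Kif26a lay between 6 and 45 with a median of 23. Flnc, an actin-crosslinking filamin, was 861 and 917 in miniSOX, 488 and 332 in FNV, 492 and 412 in SOX2, and 270 and 236 in NTC libraries in SL, and between 16 and 87 in 2i. Dpysl5, a collapsin response mediator protein of growing neurons, was 133 and 151 in miniSOX, 302 and 281 in FNV, 131 and 79 in SOX2, and 99 and 94 in NTC libraries in SL. FNV was the highest line for Dpysl5 in SL, and its 2i libraries lay between 12 and 31 over all lines.

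Lines were closer together in SL for the other members of that group. Nav2, a neuron navigator, lay between 283 and 802 in SL and between 30 and 86 in 2i. Arhgef10 lay between 228 and 431 in SL and between 17 and 54 in 2i. For Bicdl1, an adaptor between vesicles and motors, the values were 140 and 113 in miniSOX, 208 and 164 in FNV, 224 and 191 in SOX2, and 96 and 82 in NTC libraries in SL, and 12 to 47 in 2i. Klc3, a kinesin light chain, lay between 65 and 108 in SL and between 6 and 27 in 2i. The protein-coding gene Ercc2 overlaps it on the other strand.

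Members that act in signalling, the cell cycle and cell death followed. Cdkn1c encodes p57, an inhibitor of cyclin-dependent kinases, and is imprinted, with the maternal copy expressed. It was 1737 and 1687 in miniSOX, 144 and 141 in FNV, 302 and 226 in SOX2, and 1119 and 1351 in NTC libraries in SL. The highest SL mean of Cdkn1c was 12.0 times the lowest, the widest spread among the 37 genes. In 2i Cdkn1c was 9 and 18 in miniSOX, 21, 21, 67 and 36 in FNV, 11, 7, 7 and 4 in SOX2, and 10, 9 and 31 in NTC libraries, and FNV and NTC overlapped. FNV cells were therefore the lowest line in SL and had the highest mean in 2i, and its medium ratio was the smallest of the lines.

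Bcl2l11 encodes BIM, a BH3-only protein that promotes apoptosis. Its SL libraries lay between 321 and 508 with a median of 402, and its 2i libraries between 76 and 110 with a median of 92. In SL the miniSOX and NTC libraries overlapped and so did those of FNV and SOX2, and in 2i all 4 lines overlapped. Ripk4, a kinase of keratinocyte differentiation, lay between 249 and 416 in SL and between 15 and 67 in 2i. Mapk8ip1, the JIP1 scaffold of the JNK pathway, lay between 267 and 463 in SL, and in 2i its NTC values were 24, 24 and 120, with p31 the highest of all 13 libraries. Kndc1, a Ras guanine nucleotide exchange factor of neurons, was 341 and 357 in miniSOX, 120 and 72 in FNV, 145 and 130 in SOX2, and 135 and 104 in NTC libraries in SL. Its 2i values were 12 and 17 in miniSOX, 27, 31, 15 and 31 in FNV, 10, 7, 8 and 10 in SOX2, and 4, 9 and 1 in NTC libraries. Pdzd4, a PDZ-domain protein encoded on the X chromosome, was 4973 and 4902 in miniSOX, 5798 and 5052 in FNV, 4733 and 5396 in SOX2, and 3108 and 3035 in NTC libraries in SL. It was 219 and 291 in miniSOX, 92, 106, 48 and 238 in FNV, 199, 141, 291 and 170 in SOX2, and 467, 467 and 740 in NTC libraries in 2i, where NTC was the highest line after being the lowest in SL.

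Car4 and Slco4a1 act at the cell membrane. Car4, a carbonic anhydrase anchored to the cell surface, was 717 and 761 in miniSOX, 179 and 183 in FNV, 140 and 108 in SOX2, and 514 and 703 in NTC libraries in SL, and 1 to 44 in 2i. Slco4a1, an organic anion transporter, was 196 and 122 in miniSOX, 129 and 146 in FNV, 205 and 212 in SOX2, and 226 and 189 in NTC libraries in SL. In 2i Slco4a1 was 1 and 1 in miniSOX, 7, 4, 5 and 1 in FNV, 58, 61, 10 and 9 in SOX2, and 31, 29 and 1 in NTC libraries. First-wave libraries of SOX2 and NTC cells stood above second-wave libraries of the same line for this gene.

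The last members have values that jump rather than grade. Rgs17, a regulator of G-protein signalling, lay between 67 and 132 in SL, and was listed at 0 in 11 libraries and at 39 and 40 in replicate 2 and p31 of SOX2 cells in 2i. Olfr307, an olfactory receptor gene, was 559 and 577 in miniSOX, 488 and 510 in FNV, 367 and 212 in SOX2, and 416 and 420 in NTC libraries in SL. In 2i it was 152 in replicate 1 of miniSOX, 146 in FNV p31 and listed at 0 in the other 11 libraries. Olfr924, another olfactory receptor gene, was 0 and 180 in miniSOX, 227 and 255 in FNV, 153 and 0 in SOX2, and 0 and 198 in NTC libraries in SL. In 3 of 4 lines, then, the SL mean of Olfr924 came from 1 library. Gm14015, the only member that is not protein coding, is a lincRNA that lay between 58 and 89 in SL and at 0 or 1 in 2i except in FNV p31, at 65. Olfr924, Olfr307, Rgs17 and Has2 have libraries at 0 and no value between 0 and 20, and such a 0 can be a failed estimate and does not show that the transcript was absent.

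**Figure D3:**
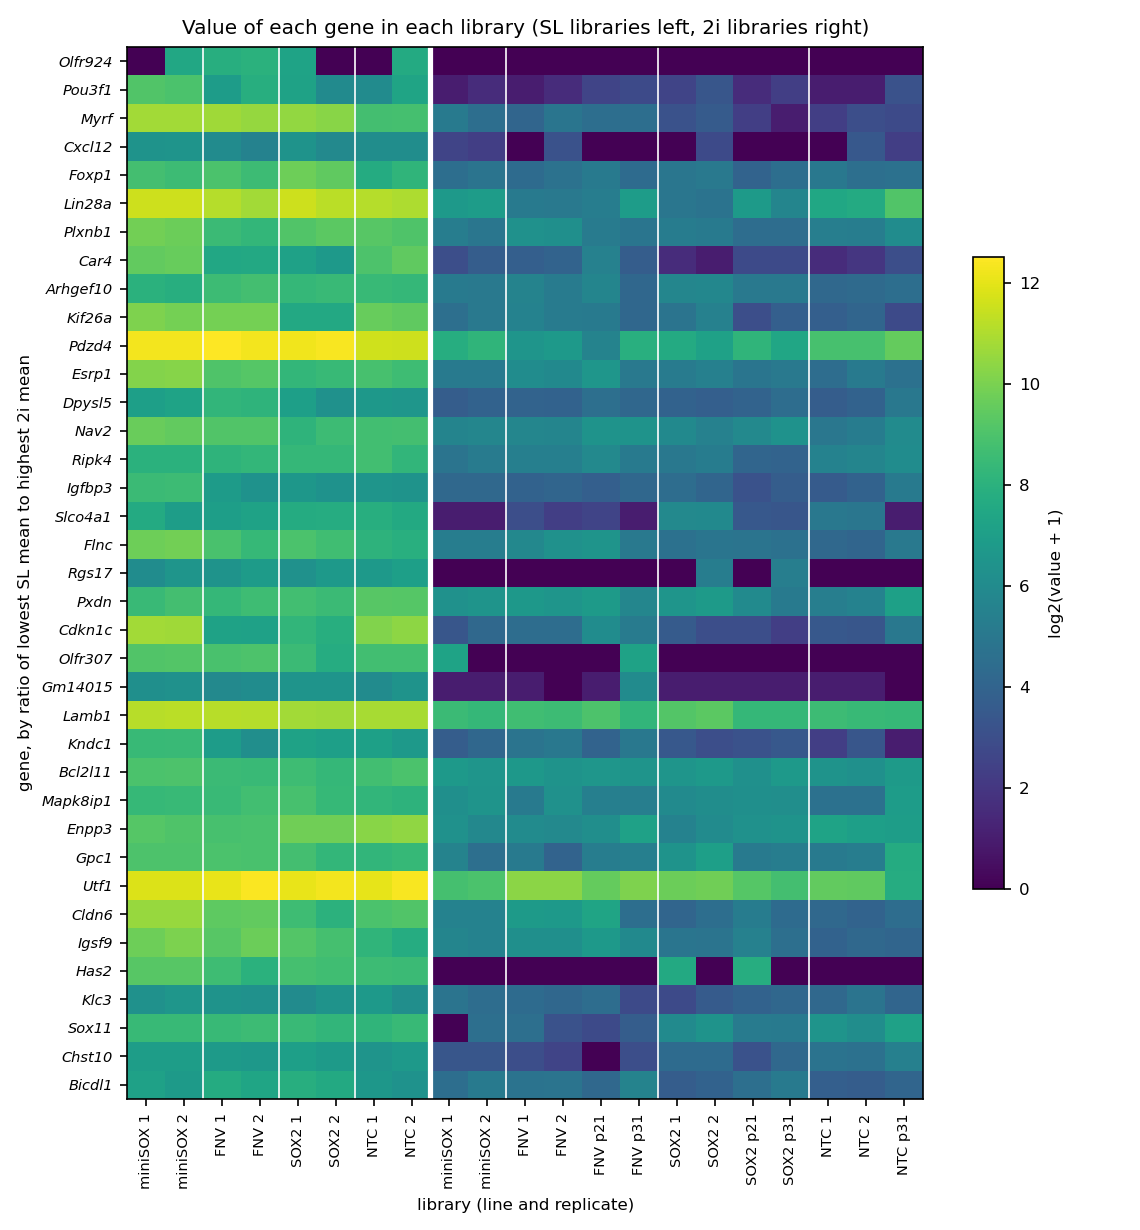
Value of each of the 37 genes in each of the 21 libraries as log2(value + 1), with the 8 SL libraries left and the 13 2i libraries right of the thick line, and genes ordered by ratio after Olfr924. The SL side is brighter for every gene, and isolated dark or bright cells mark the libraries at 0 or apart for Olfr924, Olfr307, Rgs17, Gm14015 and Has2.

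Some 2i libraries were the highest for several members. NTC p31 was the highest of the 13 libraries for 11 of the 37 genes, among them Lin28a, Gpc1, Mapk8ip1, Sox11, Pdzd4 and Pxdn. FNV p21 was the highest for 8, among them Cldn6, Esrp1, Cdkn1c and Car4. How often each library was the highest over all genes was not counted, so these counts mark no trait of the members. By line, NTC had the highest 2i mean for 29.7% of the 37 genes and FNV for 37.8%. Among genes with a lowest SL mean of at least 50, the shares were 34.6% and 22.4%. NTC p31 also had the lowest sum of embryonic stem cell markers among 2i libraries, 46304, and the highest sum of the 3 measured streak and mesoderm markers, 162, whose part was not tested. Without NTC p31 the rule kept all 37 genes and admitted 4 more.

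Lines were then compared within a medium. The rule did not contrast lines directly, but it took the lowest of the SL means and the highest of the 2i means over the lines. Differences between lines therefore entered the choice of the 37 genes. The shares among them and among all genes are set side by side as a description. The values were tested with limma on log2(value + 1), a scale that understates the change of low genes, and adjusted over all 16443 genes. Of the 37 genes, 16 passed an adjusted p of 0.05 in at least 1 of 5 comparisons in SL, beside 48.4% of all genes, and 21 passed in none of them. Over all 8 comparisons 13 of the 37 genes passed in none, beside 31% of all genes. Among these 13 were Pou3f1, Cxcl12, Lamb1, Bcl2l11, Gpc1, Pxdn and Klc3. Igsf9 passed in 6 comparisons, and Enpp3, Kif26a and Kndc1 in 5 each. Comparisons with NTC share its libraries, as do those with FNV or SOX2. No label says whether replicates 1 and 2 of a first-wave or miniSOX group are separate cultures. Titles of the second-wave FNV, SOX2 and NTC libraries call them biological replicate 2 or 3, while first-wave and miniSOX titles give only replicate 1 or 2. By that numbering, replicates 1 and 2 of a first-wave group may together be 1 biological replicate. The 2 miniSOX libraries of a medium may be so too, and leaving out 1 of them does not settle it. The p-values therefore reflect the spread among the libraries at hand, which may be technical. When first-wave replicates were averaged into 1 library per group, limma called 0 of the 37 genes in each of the 5 SL comparisons, with 3 to 8 of them at an unadjusted p under 0.05. The miniSOX libraries were not averaged in that fit and still counted as 2 per medium. Of all genes 1.12% to 6.12% were called in those fits.

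In miniSOX against NTC cells in SL, 7 of the 37 genes rose and 1 fell, beside 9.44% of all genes called higher and 10.2% called lower. Myrf was higher by 2.57 ± 0.61 (log2 ± SE, adjusted p = 0.00907), Igfbp3 by 2.03 ± 0.50 (adjusted p = 0.0115), Igsf9 by 1.80 ± 0.34 (adjusted p = 0.00225) and Esrp1 by 1.71 ± 0.40 (adjusted p = 0.00823). Enpp3, the gene that fell, changed by -1.66 ± 0.34 (adjusted p = 0.00358). These 5 calls held when any 1 of the 4 libraries was left out. Kndc1 rose by 2.13 ± 0.57 (adjusted p = 0.018) and Flnc by 1.73 ± 0.45 (adjusted p = 0.0143), but both missed the threshold without miniSOX replicate 1, without miniSOX replicate 2 or without NTC replicate 2, at adjusted p from 0.0501 to 0.0803. Kif26a was called higher at 1.67 ± 0.44 (adjusted p = 0.0151), and lost the call without miniSOX replicate 1 (adjusted p = 0.0743), NTC replicate 1 (0.0502) or NTC replicate 2 (0.0606). All miniSOX libraries are of the second wave and all other SL libraries of the first, so in SL the wave could be estimated only through the 2i libraries. With no wave term the change of Kif26a was 0.47 (adjusted p = 0.648), and 6 of the 37 genes and 18.6% of all genes were called. Kndc1 lost the call in that fit too, at 1.55 (adjusted p = 0.0573). Fitted on the SL libraries alone, where wave and line cannot be told apart, 20 of the 37 genes and 34.5% of all genes were called.

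Set against FNV cells in SL, miniSOX cells had 6 of the 37 genes higher and 1 lower, beside 7.4% and 7.8% of all genes. Cdkn1c rose by 2.97 ± 0.62 (adjusted p = 0.00565) and Plxnb1 by 1.93 ± 0.44 (adjusted p = 0.00874), and Dpysl5 fell by 1.63 ± 0.33 (log2 ± SE, adjusted p = 0.0044). Those 3 calls held with any 1 library left out. Dpysl5 missed the threshold with no wave term, at -1.03 (adjusted p = 0.0784). Kndc1 rose by 2.47 ± 0.57 (adjusted p = 0.0105) and lost the call without FNV replicate 2 (adjusted p = 0.0619). Igfbp3 rose by 1.88 ± 0.50 (adjusted p = 0.0215), a call lost without miniSOX replicate 1, miniSOX replicate 2 or FNV replicate 2 (adjusted p from 0.0788 to 0.0998), and Esrp1 by 1.32 ± 0.40 (adjusted p = 0.0381), a call lost without any 1 of the 4 libraries (adjusted p from 0.0881 to 0.128). Slco4a1 was called higher at 2.43 ± 0.76 (adjusted p = 0.044), although its values were 196 and 122 in miniSOX and 129 and 146 in FNV libraries. With no wave term its change was 0.17 (adjusted p = 0.965), and the call was also lost without any 1 of the 4 libraries (adjusted p from 0.0794 to 0.188). Esrp1 missed the threshold with no wave term as well, at 1.065 (adjusted p = 0.0581).

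FNV against SOX2 cells in SL gave 3 genes higher and 1 lower, beside 10.2% and 11.2% of all genes. Kif26a was higher by 2.36 ± 0.37 (adjusted p = 0.000535) and Dpysl5 by 1.51 ± 0.28 (adjusted p = 0.0017), both with any 1 library left out as well. Nav2 rose by 0.74 ± 0.20 (adjusted p = 0.0181) and lost the call without FNV replicate 1, FNV replicate 2 or SOX2 replicate 1 (adjusted p from 0.0658 to 0.161). Enpp3 changed by -0.90 ± 0.29 (adjusted p = 0.0381) and lost the call without any 1 of the 4 libraries (adjusted p from 0.123 to 0.13). Nav2 (adjusted p = 0.191) and Enpp3 (0.0998) also lost the call with no wave term. With no wave term 2 of the 37 genes and 11.8% of all genes were called, and within first-wave libraries 12 of the 37 genes and 33.3% of all genes were.

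Against NTC cells in SL, FNV cells had 4 of the 37 genes higher and 3 lower, beside 14.2% and 15.8% of all genes. Dpysl5 rose by 1.58 ± 0.28 (adjusted p = 0.000726) and Igsf9 by 1.51 ± 0.29 (adjusted p = 0.00135). Cdkn1c changed by -3.10 ± 0.53 (adjusted p = 0.000571) and Enpp3 by -1.46 ± 0.29 (adjusted p = 0.00165). The calls of Dpysl5, Igsf9, Cdkn1c and Enpp3 held with any 1 library left out. Myrf rose by 1.83 ± 0.52 (adjusted p = 0.016) and Bicdl1 by 1.05 ± 0.38 (adjusted p = 0.0481), and both lost the call without any 1 of the 4 libraries, at adjusted p from 0.0568 to 0.0792 for Myrf and from 0.0899 to 0.213 for Bicdl1. Car4 changed by -1.73 ± 0.45 (adjusted p = 0.0104) and missed the threshold without FNV replicate 2 (adjusted p = 0.051) or NTC replicate 2 (0.0815). Car4 (adjusted p = 0.0762) and Bicdl1 (0.104) also missed it with no wave term. Within first-wave libraries 13 of the 37 genes were called, beside 41.1% of all genes.

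In SOX2 against NTC cells in SL, 3 genes rose and 3 fell, beside 7.35% and 7.63% of all genes. Foxp1 rose by 1.68 ± 0.32 (adjusted p = 0.00285), Car4 changed by -2.28 ± 0.45 (adjusted p = 0.00406) and Kif26a by -1.99 ± 0.37 (adjusted p = 0.00268), and these 3 calls held with any 1 library left out. Kif26a missed the threshold with no wave term (adjusted p = 0.0689). Cdkn1c changed by -2.23 ± 0.53 (adjusted p = 0.0116) and lost the call without SOX2 replicate 2 (adjusted p = 0.0799) or NTC replicate 2 (0.0754). Igsf9 rose by 1.03 ± 0.29 (adjusted p = 0.0273), a call lost without SOX2 replicate 1, SOX2 replicate 2 or NTC replicate 2 (adjusted p from 0.0537 to 0.189). Bicdl1 rose by 1.21 ± 0.38 (adjusted p = 0.0432), a call lost without any 1 of the 4 libraries (adjusted p from 0.107 to 0.184) and with no wave term (0.108). Within first-wave libraries 12 of the 37 genes and 27.6% of all genes were called.

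**Figure D4:**
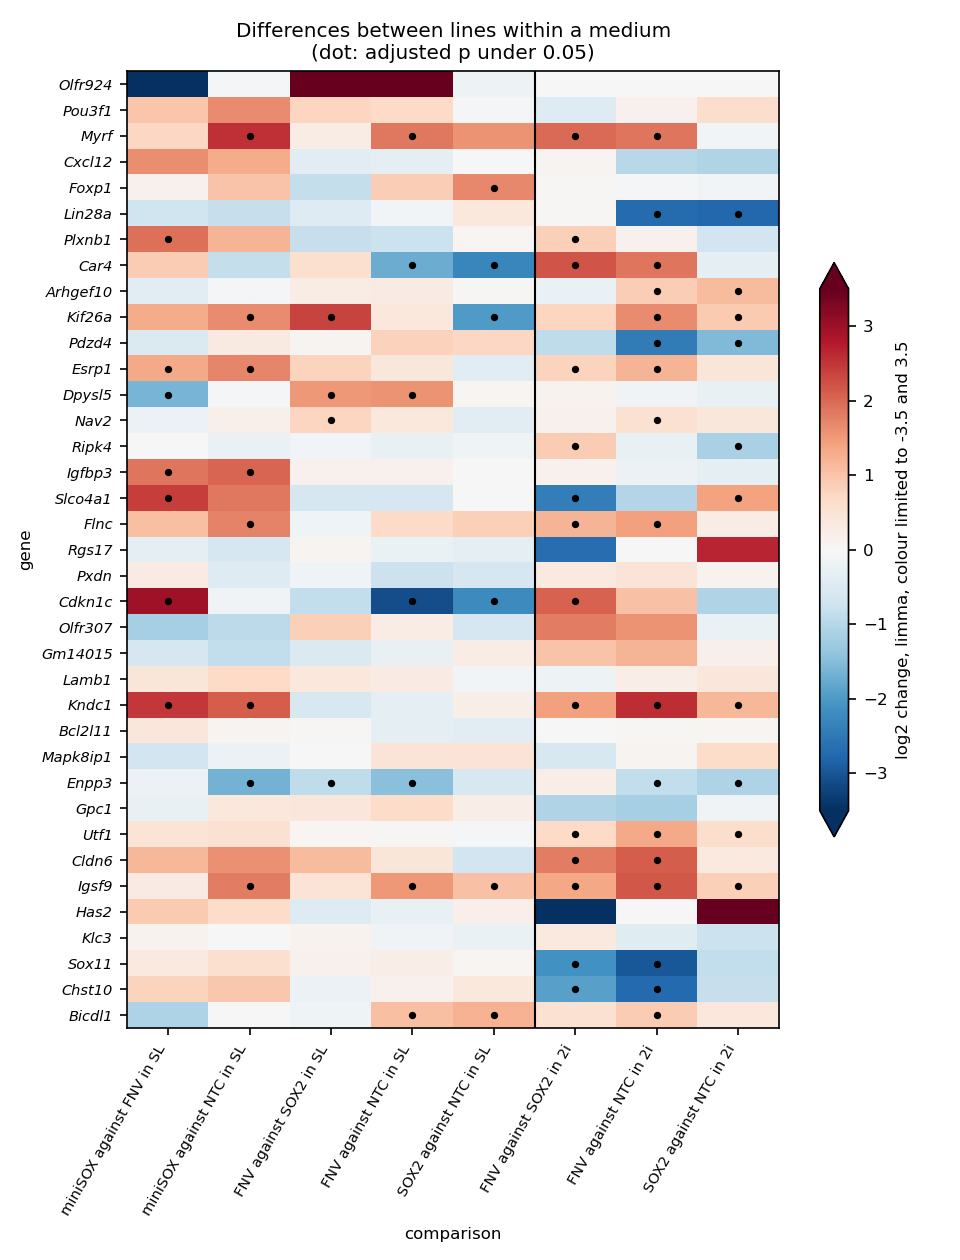
log2 change (limma) of each of the 37 genes between lines, with 5 comparisons in SL left of the black line and 3 in 2i right of it, red where the line named first is higher, blue where it is lower, and a dot where the adjusted p was under 0.05. Dots number 4 to 8 per comparison in SL and 10 to 17 in 2i. The deep colours without a dot belong to Olfr924, Has2 and Rgs17, whose libraries mix 0 with high values.

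The remaining expression in 2i also differed between lines. In FNV against NTC cells, 12 of the 37 genes were higher and 5 lower in 2i, beside 19.7% and 20% of all genes. Kndc1 rose by 2.58 ± 0.38 (adjusted p = 7.98e-05), Igsf9 by 2.18 ± 0.22 (adjusted p = 2.88e-06), Cldn6 by 2.12 ± 0.49 (adjusted p = 0.00287) and Utf1 by 1.32 ± 0.21 (adjusted p = 0.000176). Lin28a changed by -2.69 ± 0.31 (adjusted p = 8.83e-06), Pdzd4 by -2.45 ± 0.37 (adjusted p = 0.000104) and Chst10 by -2.71 ± 0.55 (adjusted p = 0.00114). Those 7 calls, and those of Myrf, Car4, Kif26a, Flnc, Esrp1 and Enpp3, held with any 1 library left out, 13 of 17 in all. Sox11 changed by -2.96 ± 0.75 (adjusted p = 0.00586), and by -2.32 with the call lost (adjusted p = 0.0587) without NTC p31. The calls of Nav2 (without NTC replicate 1, adjusted p = 0.0728), Arhgef10 (adjusted p from 0.0668 to 0.0796 without FNV replicate 1, NTC replicate 1 or NTC replicate 2) and Bicdl1 (adjusted p from 0.0549 to 0.0963 without 1 of 5 libraries: FNV replicate 1, FNV replicate 2, FNV p31, NTC replicate 2 or NTC p31) were lost as well.

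Compared with SOX2 cells, FNV cells had 11 of the 37 genes higher and 3 lower in 2i, beside 12.4% and 12.9% of all genes. Car4 rose by 2.20 ± 0.32 (adjusted p = 0.000174), Cdkn1c by 2.08 ± 0.37 (adjusted p = 0.000955), Myrf by 1.98 ± 0.37 (adjusted p = 0.00123), Cldn6 by 1.78 ± 0.45 (adjusted p = 0.00882) and Kndc1 by 1.43 ± 0.35 (adjusted p = 0.00734). Slco4a1 changed by -2.43 ± 0.46 (adjusted p = 0.00136) and Chst10 by -1.90 ± 0.50 (adjusted p = 0.0123). These 7 calls and those of Igsf9 and Flnc held with any 1 library left out, although that of Slco4a1 was lost with no wave term (adjusted p = 0.0527). Utf1 was called higher at 0.70 ± 0.19 and lost the call without FNV p31 or SOX2 replicate 1 (adjusted p from 0.0541 to 0.0546). Esrp1, at 0.77 ± 0.24, lost it without FNV replicate 1, FNV replicate 2, FNV p21, SOX2 replicate 1 or SOX2 p21 (adjusted p from 0.0553 to 0.078), and Plxnb1, at 0.83 ± 0.26, without FNV replicate 1, FNV replicate 2 or any 1 of the SOX2 libraries (adjusted p from 0.051 to 0.109). Sox11, at -2.11 ± 0.69, lost it in 6 of 8 such fits, all but those without FNV replicate 1 or SOX2 p31 (adjusted p from 0.0536 to 0.108). Ripk4, at 0.88 ± 0.25, lost it without FNV p21, SOX2 p21 or SOX2 p31 (adjusted p from 0.0535 to 0.0664), and changed by 0.27 (adjusted p = 0.246) within first-wave libraries.

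SOX2 against NTC cells in 2i had 6 genes higher and 4 lower, beside 14.4% and 14.3% of all genes. Lin28a changed by -2.74 ± 0.31 (adjusted p = 2.47e-05), Pdzd4 by -1.55 ± 0.37 (adjusted p = 0.00607) and Enpp3 by -1.09 ± 0.22 (adjusted p = 0.00226), and Arhgef10 rose by 1.10 ± 0.27 (adjusted p = 0.00803). Those 4 calls held with any 1 library left out, and the other 6 did not hold without NTC p31. Ripk4 changed by -0.79 without it (adjusted p = 0.0621) and by -1.15 with it, and Igsf9 by 0.78 without it (adjusted p = 0.0502) and by 0.83 with it. Kif26a changed by 0.94 without it (adjusted p = 0.0652) and by 0.91 with it, and Slco4a1 by 0.55 without it (adjusted p = 0.443) and by 1.40 with it. Kndc1 changed by 0.53 without it (adjusted p = 0.313) and by 1.15 with it, and Utf1 by 0.20 without it (adjusted p = 0.437) and by 0.62 with it. Kif26a, Slco4a1, Kndc1 and Utf1 also lost the call without 5, 5, 4 and 3 of the other 6 libraries (adjusted p from 0.0502 to 0.114).

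The spread between lines in SL was described for the 37 genes beside that of genes at large. The highest SL mean was a median of 1.96 times the lowest over the 37 genes, against 1.52 times over the 10672 genes with a lowest SL mean of at least 50, and it was over 3 times in 37.8% of the 37 genes against 8.26% of those genes. MiniSOX had the highest SL mean for 21 of the 37 genes, or 56.8%, against 26.4% of the 10672 genes. FNV had the highest SL mean for 6 of the 37, SOX2 for 5 and NTC for 5. Cldn6, Esrp1, Pou3f1, Igfbp3, Plxnb1, Flnc and Kndc1 were among the 21. In 2i, FNV had the highest mean for 14 of the 37 genes, or 37.8%, against 22.4%. These shares are descriptions with no test, and wave and line cannot be told apart for miniSOX in SL. Among SL libraries, miniSOX replicate 2 had the highest sums of trophectoderm (22597), streak and mesoderm (314) and neuroectoderm markers (1211). MiniSOX replicate 1 had those of fibroblast (10486) and extraembryonic endoderm markers (10589). Embryonic stem cell markers had their lowest SL sum in miniSOX replicate 2 (47026). Blood markers had their highest in FNV replicate 2 (662). The part of these markers was not tested. The median difference between replicates 1 and 2 in SL, in log2, was 0.18 in FNV, 0.27 in SOX2 and 0.19 in NTC cells for the 37 genes, against 0.16, 0.16 and 0.12 for the 10672 genes, while in miniSOX it was 0.07 against 0.08.

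**Figure D5:**
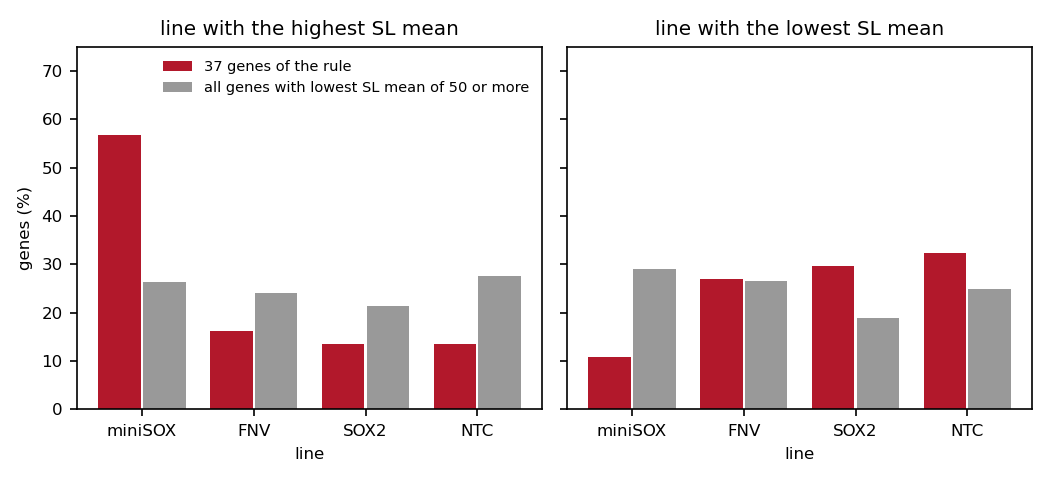
Percentage of the 37 genes (red) and of the 10672 genes with a lowest SL mean of at least 50 (grey) for which each line had the highest (left) or the lowest (right) mean in SL. MiniSOX was highest for 56.8% of the 37 genes and lowest for 10.8%, against 26.4% and 29.0% of the 10672 genes.

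The annotation of the members (GENCODE M21, GRCm38) was not used by the rule. Of the 37 genes 36 are protein coding, on 16 chromosomes, with 6 on chromosome 7, 4 on chromosome 2 and 4 on chromosome 12. Kndc1 (chromosome 7, 139894696 to 139941537, plus strand) and Utf1 (139943789 to 139945112, plus strand) are separated by 2252 bases, and the next nearest pair, Pxdn and Lamb1 on chromosome 12, by 1247576 bases. Their line orders differed: in SL miniSOX was highest for Kndc1 and lowest for Utf1, whereas in 2i FNV was highest for both. Cdkn1c lies farther along the same chromosome (143458339 to 143461050, minus strand), and Pou3f1 lies on chromosome 4 (124656807 to 124660655, plus strand). The median GC content of the longest transcript was 54.3% for the 37 genes against 47.5% for the 10672 genes, and the median exon length was 6157 against 4601 bases. Among the 37 genes, 15 overlap another annotated gene, and 4 of these overlap a protein-coding one.

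Genes of related pathways were listed with earlier results of these data known. Of 17 measured formative and primed pluripotency genes, 9 had a higher mean in SL in every line and 0 a lower one, where 18.9% of all genes were higher and 19.7% lower in every line. Only Pou3f1 and Utf1 of this list met the rule. Both are among the 9, and the rule itself made them higher in SL in every line. Lefty1, Tcf15 and Otx2 were at least 3 times their own line's 2i mean in every line, but the lines differed too much for the rule. Lefty1, an inhibitor of Nodal, averaged 1278 in miniSOX, 272 in FNV, 1136 in SOX2 and 934 in NTC cells in SL, and 18.5 in miniSOX, 6.25 in FNV, 3.0 in SOX2 and 229 in NTC cells in 2i. Otx2, a homeobox factor of the formative state, averaged 311 in miniSOX, 156 in FNV, 1219 in SOX2 and 432 in NTC cells in SL, and 56.0, 41.5, 135 and 133 in the same lines in 2i. Fgf5, a marker of the primed epiblast, averaged 166 in miniSOX and 7.0 in FNV, 18.5 in SOX2 and 8.5 in NTC cells in SL, below the minimum in those 3 lines.

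The other 15 formative and primed genes were compared between lines in the same fit. In FNV against NTC cells in 2i, 1 of 15 rose and 11 fell, beside 19.7% and 20% of all genes. In FNV against SOX2 cells in 2i, 2 of 15 rose and 6 fell, beside 12.4% and 12.9% of all genes. In SOX2 against NTC cells in 2i, 7 fell and 8 were not called, beside 14.3% of all genes called lower. In SL, 4 of the 15 rose and 11 were not called in SOX2 against NTC cells, beside 7.35% of all genes called higher. In FNV against SOX2 cells in SL, 3 fell and 12 were not called, beside 11.2% of all genes called lower. Against NTC cells in SL, 2 rose and 1 fell in FNV cells, beside 14.2% and 15.8% of all genes. In miniSOX cells 2 rose and 1 fell there, beside 9.44% and 10.2%. Between miniSOX and FNV cells in SL, 3 were higher and 0 lower in miniSOX, beside 7.4% and 7.8%. The difference between the list and the members was not tested.

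ERK feedback and immediate target genes, which respond to the kinase that 2i blocks, gave 11 of 19 higher and 0 lower in SL in every line, yet 0 of them met the rule. Of all genes, 18.9% were higher and 19.7% lower in SL in every line. Dusp6, a phosphatase of ERK, averaged 652 in miniSOX, 251 in FNV, 838 in SOX2 and 991 in NTC cells in SL, and 25.0 in miniSOX, 28.5 in FNV, 82.0 in SOX2 and 223 in NTC cells in 2i. The 2i mean of NTC cells for Dusp6 thus came close to the SL mean of FNV cells. Spry4, an inhibitor of receptor tyrosine kinase signalling, missed the ratio with 217 as its lowest SL mean and 78.7 as its highest 2i mean. Of 20 measured keratin and junction genes 7 were higher and 1 lower in SL in every line. Cldn6 was the 1 member among them, and the rule itself made it higher. Its relative Cldn4 averaged 2302 in miniSOX, 2332 in FNV, 597 in SOX2 and 2661 in NTC cells in SL, and 1582, 2633, 1791 and 1451 in the same lines in 2i. Of the other 19 keratin and junction genes, 9 rose and 1 fell in miniSOX against FNV cells in SL. Of all genes, 7.4% and 7.8% did. In FNV against NTC cells in 2i, 12 rose and 1 fell, beside 19.7% and 20%. Against NTC cells in SL, 8 rose and 0 fell in miniSOX, and 6 rose and 4 fell in FNV cells. In SOX2 cells 2 rose and 8 fell there. Of all genes, 9.44% and 10.2%, 14.2% and 15.8%, and 7.35% and 7.63% did, in that order. Some of the 22 trophectoderm markers, such as Krt8 and Krt18, are also in that list. Of the 22, 14 rose and 8 were not called in miniSOX against FNV cells in SL. In FNV against NTC cells in 2i, 12 rose and 1 fell. Against NTC cells in SL, however, 4 of these markers rose and 1 fell in miniSOX cells. There 2 rose and 11 fell in FNV, and 1 rose and 12 fell in SOX2 cells. Summed, these markers lay between 3798 and 22597 in SL libraries, with miniSOX replicate 2 highest, and between 5943 and 18256 in 2i libraries, with FNV replicate 1 highest. Their part in the results for the 37 genes was not tested. Of 17 naive pluripotency genes 0 were higher and 8 lower in SL in every line, beside 18.9% and 19.7% of all genes. Between miniSOX and FNV cells in SL, 0 of the 17 were higher and 12 lower in miniSOX, beside 7.4% and 7.8%. Against NTC cells in SL, 2 rose and 6 fell in miniSOX, beside 9.44% and 10.2%. There 7 rose and 1 fell in FNV cells, beside 14.2% and 15.8%.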

How the data were processed

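RNA was measured in 21 libraries of 2TS22C cells; per the labels' protocols, mRNA was enriched on oligo(dT) beads. RSEM and Bowtie2 2.0 with mm10 are named in the submitters' processing notes. The deposited table is read as a score that the authors scaled to a common distribution and rounded, since after sorting, libraries differ by at most 3 at any rank. Read depth cannot be recovered from it, so intervals for counting error are not given. Column names tied 16 columns to a sample and 5 (p21 and p31) to a group.

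The 8 group means gave the 37 genes. Line comparisons used limma 3.58.1 (R 4.3.3, intensity trend, robust) on log2(value + 1), with group and wave as terms, all 21 libraries, 12 residual degrees of freedom and Benjamini-Hochberg adjustment over 16443 genes, called at adjusted p under 0.05. The fit was tested on simulated data. SL against 2i was not tested, because it chose the genes. Genes were placed by identifier in GENCODE M21.

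The members and the lists were chosen with earlier results of these data known. Named genes are the 15 largest ratios, up to 4 members per list, up to 4 called changes in each direction per comparison and the nearest 3 on each side of a threshold, predicted genes left out of each; Gm14015, other members and list genes named were chosen after their values were seen. Alternatives covered pseudocount, filter, scaling, wave, replicate handling, the groups fitted and each library left out.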

Additional observations from a re-analysis of the deposited data

Results flagged for a closer look

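In 2i, the FNV and SOX2 groups have 4 libraries each, which gives 74 sets of 4 values over the 37 genes. In 9 of them the highest or lowest library lay apart by more than Dixon's critical value for 4 values, and chance flags about 1 in 20. Of the 9, 5 concern second-wave libraries of FNV cells: Enpp3 at 141, Olfr307 at 146, Lin28a at 120 and Gm14015 at 65 in p31, and Car4 at 44 in p21. Replicate 2 of FNV cells stood apart for Mapk8ip1 at 80 and for Cxcl12 at 8. In SOX2 cells, Chst10 at 8 in p21 and Cxcl12 at 6 in replicate 2 stood apart.

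For 2 genes FNV and SOX2 libraries were ordered one way in SL and the other way in 2i. Cdkn1c changed by -0.87 in FNV against SOX2 cells in SL and by 2.08 in 2i (log2). Kndc1 changed by -0.56 in SL and by 1.43 in 2i. Neither gene was called in SL, where each line had 2 libraries, and both were called in 2i. The share of all genes with such a change of order was not counted. The difference between the media was not tested for either gene.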

How the results depend on the processing

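The number of genes meeting the rule was 73 at a ratio of 2 and 16 at a ratio of 4, 12 when the lowest SL library was set against the highest 2i library, and 69 when each line was set against its own 2i mean (chosen after seeing the data). It stayed between 34 and 41 with any 1 library left out. Of 1202 alternative values of the 73 calls, 989 stayed past the threshold, 213 did not and 0 reversed; 14 calls held under every alternative. In miniSOX against NTC, miniSOX against FNV, FNV against SOX2, FNV against NTC and SOX2 against NTC cells in SL, 8, 7, 4, 7 and 6 genes were called. With first-wave replicates averaged, limma called 0 in each, with 8, 8, 3, 6 and 4 at an unadjusted p under 0.05 and 1.12% to 6.12% of all genes called. With SL groups alone it called 20, 13, 11, 16 and 13, beside 34.5%, 30.7%, 26.4%, 34.6% and 20.9% of all genes. With no wave term the count was 4 in miniSOX against FNV and 2 in FNV against SOX2 cells (14% and 11.8% of all genes). With first-wave libraries only it was 12, 13 and 12 in FNV against SOX2, FNV against NTC and SOX2 against NTC cells (33.3%, 41.1% and 27.6% of all genes). With 1 library left out it ranged from 5 to 7, 3 to 5, 2 to 3, 4 to 5 and 3 to 5. In 2i, FNV against NTC, FNV against SOX2 and SOX2 against NTC cells had 17, 14 and 10 calls, and 9, 4 and 2 with first-wave replicates averaged (24.3%, 9.43% and 10.4% of all genes). With 2i groups alone FNV against SOX2 cells had 9 and SOX2 against NTC cells 6 (20.9% and 24.1% of all genes), and the second of these had 6 with no wave term (17.9%). The cause of these changes was not tested, though averaging and leaving out libraries lower the number of libraries.

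Replicate numbers did not pair the libraries: deviations of same-numbered libraries correlated between -0.044 and 0.056 over 28 pairs of groups. With a replicate block on the numbered libraries, which drops the p21 and p31 libraries, SL counts were 11 in FNV against SOX2, 13 in FNV against NTC and 12 in SOX2 against NTC cells (35.5%, 42.5% and 30.5% of all genes); miniSOX comparisons were not run in that fit, because wave and line cannot be told apart in it.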
